A study of Mus musculus with 6 samples.

Results

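The 10 genes described here encode cytoplasmic adaptors that link integrins to the actin cytoskeleton: Ilk, Lims1, Lims2, Parva, Tln1, Fermt2, Vcl, Zyx, Tns1 and Pxn. They were chosen by name for their role, and each was found as 1 probe set whose single annotated symbol matched, so that 10 of 10 were measured among 20239 named genes in all. RNA was measured in isolated mouse pericytes of the C57BL/6 background, mural cells on the outer wall of capillaries, and PDGF-BB is the ligand by which endothelial cells recruit them. There were 3 arrays of pericytes given PDGF-BB at 100 ng/ml for 5 days and 3 arrays of control pericytes kept for the same 5 days without it, numbered 1 to 3 in each group. No genotype other than the strain is given. Whether the arrays of a group are separate cultures is not stated, and the p-values then reflect only the scatter of these 6 samples, possibly a technical one.

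Integrins bind the extracellular matrix outside the cell and have short cytoplasmic tails that do not bind actin themselves. Talin and kindlin bind the β tails and switch integrins to their active form. The complex of ILK, PINCH and parvin (the IPP complex) attaches to the same sites and carries actin through parvin, while vinculin, zyxin and tensin reinforce the link under tension and paxillin serves as a scaffold for signalling proteins. In mural cells these adhesions hold the cell on the basement membrane of the vessel and carry its contractile force. Several of these genes, vinculin among them, are known targets of serum response factor (SRF), which with its actin-sensing cofactors of the MRTF family binds a motif called the CArG box.

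Values are log2 expression as made by RMA, a method that equalises the distribution of probe signals between arrays. A difference of 1 log2 unit is thus a doubling relative to most other genes. The median log2 change of all genes was -0.02. The array medians lay between 8.43 and 8.46, and arrays correlated across genes at r = 0.994 to 0.996 within a group and at r = 0.973 to 0.986 between groups. A level of 7.58, the 90th percentile over a list of erythroid, mast cell and lymphocyte markers, was taken as background. It depends in part on Mcpt8, a marker of that list that was itself higher with PDGF-BB. Both group means of all 10 adaptors lay above this level, between 8.67 and 13.11. Of 12 pericyte markers 8 reached background in at least 1 group. Pdgfrb, the PDGF-BB receptor, was high in both groups (12.85 ± 0.09 with PDGF-BB and 12.98 ± 0.11 in control, SD, n = 3 each). Cd248 (11.84 with PDGF-BB and 12.17 in control), Anpep (10.09 and 9.22), Cspg4 (9.48 and 8.57), Notch3 (9.10 and 9.33) and Mcam (8.53 and 9.05) also lay above background in both groups. Rgs5 (7.71 with PDGF-BB and 7.77 in control) and Kcnj8 (7.63 and 7.85), further mural markers, lay only just above background. Des, Abcc9, Higd1b and Zic1 lay below it in both groups. The fibroblast markers Dcn and Pdgfra were high in both groups. Of 8 endothelial markers 2 reached background in either group. Of 8 macrophage markers 7 lay below it in both groups, Ptprc, the pan-leukocyte marker, among them, and Cd68, a lysosomal protein, lay above it.

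With PDGF-BB, 7 of the 10 adaptors fell and 0 rose, by limma with Benjamini-Hochberg adjustment over all genes (adjusted p under 0.05). Over all 20239 genes the same test called 21.5%, with 11.4% lower and 10.1% higher. The median log2 change of the 10 adaptors was -0.31. The 7 that fell were Lims2, Vcl, Tns1, Parva, Lims1, Zyx and Fermt2, and in each of them all 3 PDGF-BB arrays lay below all 3 control arrays. Such a separation in either direction was found in 37.6% of all genes. Ilk, Tln1 and Pxn did not pass. At an unadjusted p under 0.05 limma also gave 0 adaptors higher. The size of the fall was very unequal: Lims2 was 5.31-fold lower, Vcl and Tns1 were 1.55-fold and 1.44-fold lower, and the other 4 were 1.20-fold to 1.25-fold lower. Without PDGF-BB array 2 the count that fell was 3, and without control array 1 it was 4. Lims2, Vcl and Tns1 passed under each of the 13 alternative settings tried.

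**Figure D1:**
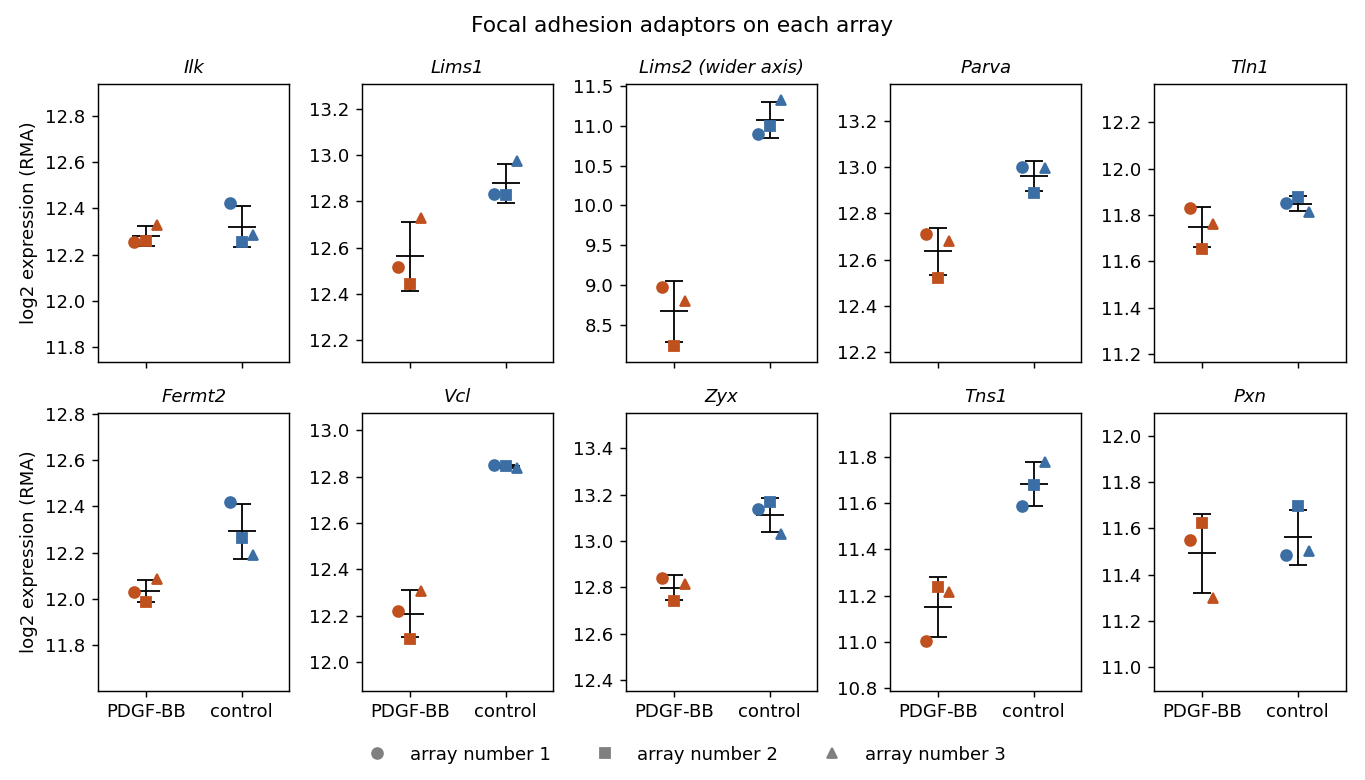
Log2 expression of the 10 adaptors on each array, with PDGF-BB arrays (orange) left of control arrays (blue), symbols for the array number, and black bars for the mean ± SD of 3 arrays. All panels span the same log2 range except that of Lims2, which is wider. In Lims2, Vcl, Tns1, Parva, Lims1, Zyx and Fermt2 every PDGF-BB array lies below every control array, while the groups overlap in Ilk, Tln1 and Pxn.

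Within the IPP complex the genes of the 2 PINCH proteins changed by unequal amounts and Ilk itself did not pass. Lims2 encodes PINCH2 (Entrez gene 225341), a protein of LIM domains only that binds the ankyrin repeats of ILK. Lims2 measured 8.97, 8.23 and 8.79 on PDGF-BB arrays 1 to 3, against 10.90, 11.00 and 11.33 on control arrays 1 to 3. Between arrays of the same number, PDGF-BB minus control was -1.92, -2.77 and -2.54, so the groups lay far apart in every pair. The log2 change was -2.41 (SE 0.20, 95% interval -2.89 to -1.93, adjusted p = 9.7e-04, limma), which made it the 12th largest fall among the 11324 genes with a negative change. Even with PDGF-BB its level stayed above background. It was also the most variable of the adaptors, with an SD of 0.39 in PDGF-BB pericytes and 0.23 in control pericytes, against a median SD of 0.08 and 0.09 over all genes.

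Lims1 encodes PINCH1 (Entrez gene 110829), the close relative that competes for the same site on ILK. Lims1 measured 12.52, 12.44 and 12.73 on the PDGF-BB arrays, against 12.83, 12.83 and 12.97 on the control arrays. The groups did not overlap, but their nearest arrays lay close together. Its log2 change was -0.31 (95% interval -0.53 to -0.10, adjusted p = 0.047, limma). The Lims1 call was lost when each array was centred on its median (adjusted p = 0.072) and when PDGF-BB array 1, PDGF-BB array 2 or a control array was left out (adjusted p = 0.074 to 0.14). The within-array difference of Lims2 minus Lims1 was -3.54, -4.21 and -3.94 in PDGF-BB pericytes and -1.93, -1.83 and -1.64 in control pericytes. Lims2 therefore fell by 2.09 log2 units more than Lims1, with an exact two-sided permutation p of 0.1, the smallest that 3 arrays against 3 can give (0.175 when adjusted over the 7 pairs of related genes compared). This permutation, used for all 7 pairs, did not take the array number into account. Probes of the 2 genes were not checked for shared sequence.

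Parva encodes α-parvin (Entrez gene 57342), the IPP member that binds actin filaments. Parva measured 12.71, 12.52 and 12.68 on the PDGF-BB arrays, against 13.00, 12.89 and 13.00 on the control arrays, so that it fell by 0.32 on the log2 scale (95% interval -0.50 to -0.15, adjusted p = 0.020, limma). All PDGF-BB arrays were below all control arrays, and leaving out PDGF-BB array 2, control array 1 or control array 3 ended the call (adjusted p = 0.060, 0.052 and 0.064). Ilk (Entrez gene 16202), the pseudokinase at the core of the complex, measured 12.25, 12.26 and 12.33 with PDGF-BB, against 12.42, 12.25 and 12.29 in control. These values overlapped, and the log2 change of Ilk was -0.04 (95% interval -0.20 to 0.11, adjusted p = 0.75, limma). The intervals of Ilk and Parva overlap, and the difference between their changes was not tested. Without control array 1 the sign of the Ilk change turned (0.01).

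Of the 2 integrin activators, Fermt2 fell and Tln1 did not pass. Fermt2 encodes kindlin-2 (Entrez gene 218952), which binds β integrin tails and ILK. Fermt2 measured 12.03, 11.99 and 12.09 on the PDGF-BB arrays, against 12.42, 12.27 and 12.19 on the control arrays, so that it fell by 0.26 on the log2 scale (95% interval -0.43 to -0.08, adjusted p = 0.049, limma). The groups did not overlap, but this was the least certain of the 7 falls. With the replicate number as a block its adjusted p was 0.066, with median centring 0.065, and it was 0.083 to 0.15 when control array 1, control array 2 or a PDGF-BB array was left out. Tln1 encodes talin 1 (Entrez gene 21894), the main link between β tails and actin. Tln1 measured 11.83, 11.65 and 11.76 with PDGF-BB, against 11.85, 11.88 and 11.81 in control. The groups overlapped only through PDGF-BB array 1, and the log2 change of -0.10 did not pass (95% interval -0.25 to 0.05, adjusted p = 0.35, limma).

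The genes of the 3 proteins that reinforce the actin link all fell. Vcl encodes vinculin (Entrez gene 22330), which binds stretched talin and actin filaments. Vcl measured 12.22, 12.10 and 12.31 on the PDGF-BB arrays, against 12.85, 12.84 and 12.84 on the control arrays. The control arrays agreed to within an SD of 0.006, a spread smaller than that of all but 0.4% of genes, and every PDGF-BB array lay far outside it. The log2 change was -0.64 (SE 0.07, 95% interval -0.79 to -0.48, adjusted p = 0.0018, limma), and the highest adjusted p of Vcl in any alternative was 0.0095.

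Tns1 encodes tensin 1 (Entrez gene 21961), a protein of mature and fibrillar adhesions that binds β tails and actin. Tns1 measured 11.00, 11.24 and 11.22 on the PDGF-BB arrays, against 11.59, 11.68 and 11.78 on the control arrays. PDGF-BB minus control was -0.58, -0.44 and -0.56 between arrays of the same number, and the log2 change was -0.53 (95% interval -0.73 to -0.32, adjusted p = 0.0063, limma). Zyx encodes zyxin (Entrez gene 22793), which brings Ena/VASP proteins to adhesions and stress fibres. Zyx measured 12.84, 12.74 and 12.81 on the PDGF-BB arrays, against 13.14, 13.17 and 13.03 on the control arrays. Its log2 change was -0.31 (95% interval -0.46 to -0.16, adjusted p = 0.014, limma). Without PDGF-BB array 2 it no longer passed (0.054).

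Pxn encodes paxillin (Entrez gene 19303), a scaffold that binds focal adhesion kinase and vinculin. Pxn measured 11.55, 11.62 and 11.30 with PDGF-BB, against 11.48, 11.70 and 11.50 in control. The groups overlapped throughout, with PDGF-BB arrays both above and below control arrays, and the log2 change of -0.07 did not pass (95% interval -0.31 to 0.18, adjusted p = 0.73, limma). Without PDGF-BB array 3, the lowest of the 6, the sign turned (0.03).

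PDGF-BB array 2 was the lowest of the 3 PDGF-BB arrays in 7 of the 10 adaptors, among them Lims2, Vcl, Parva and Zyx. Over all genes it was the lowest in 29.2%. The lowest control array was spread over the 3 control arrays, with 3, 3 and 4 adaptors. In 8 of the 10 adaptors, the 7 that fell and Tln1, the PDGF-BB array was below the control array of the same number in all 3 pairs. The same held for 29.9% of all genes.

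**Figure D2:**
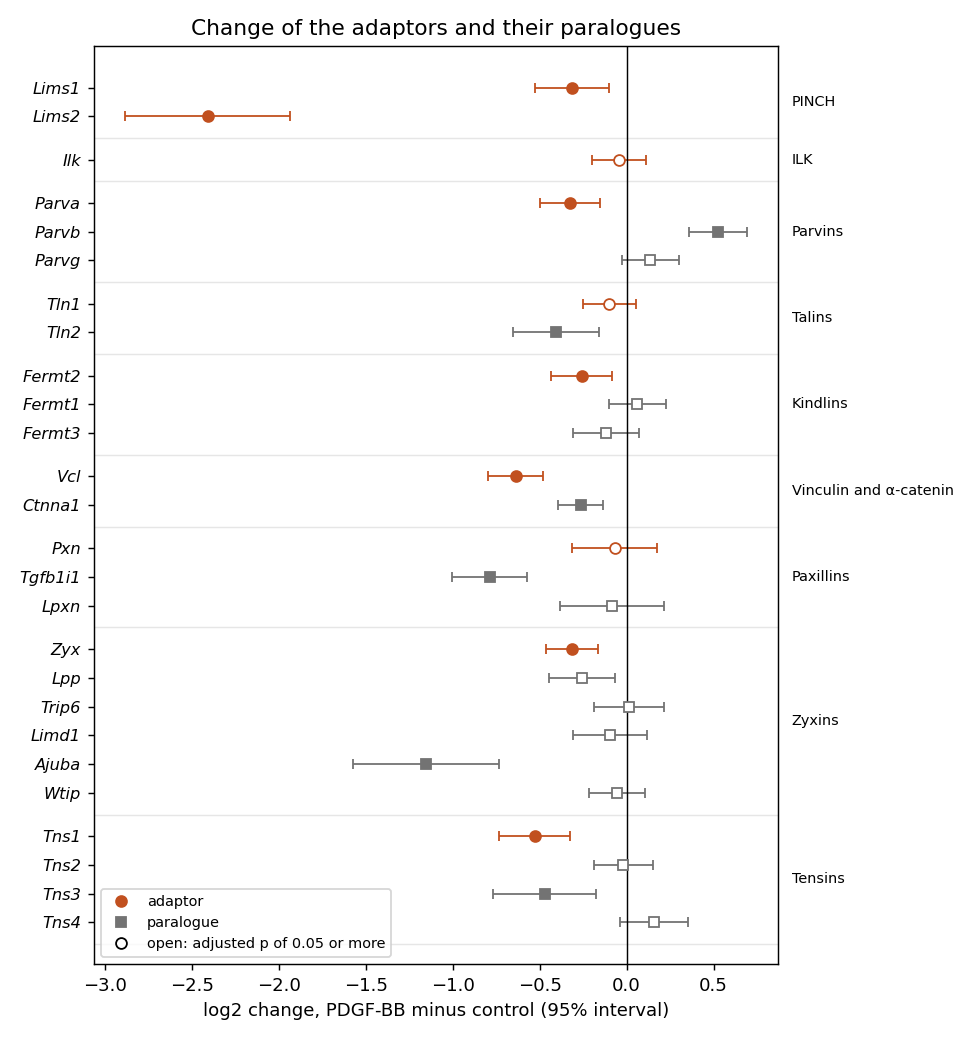
Log2 change, PDGF-BB minus control, of the adaptors (orange circles) and their paralogues (grey squares), grouped by protein family, with 95% intervals of the moderated fit and open symbols where the adjusted p was 0.05 or more. Lims2 lies at -2.41, far from Lims1 at -0.31, and Parvb at 0.53 is the 1 gene of these families that rose.

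Most of the adaptors have paralogues that can take part in the same adhesions, and some changed differently from the adaptor itself. Of 16 paralogues 5 fell and 1 rose, 37.5% called against 21.5% of all genes, with a median log2 change of -0.09. Of the 16, 13 reached background in at least 1 group, whereas the 21.5% includes many dim genes. Without PDGF-BB array 1 the number called was 3. Parvb, β-parvin, rose by 0.53 on the log2 scale (11.00 ± 0.10 with PDGF-BB and 10.47 ± 0.05 in control, SD, n = 3 each, adjusted p = 0.0032, limma), opposite to Parva. The within-array difference of Parva minus Parvb was 1.74, 1.41 and 1.76 in PDGF-BB pericytes and 2.53, 2.46 and 2.47 in control pericytes. These values did not overlap (exact two-sided permutation p of 0.1, the smallest possible, and 0.175 adjusted over 7 pairs).

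Among relatives of paxillin, Tgfb1i1, which encodes the force-sensitive adaptor Hic-5, was 1.73-fold lower (11.77 ± 0.15 with PDGF-BB and 12.56 ± 0.09 in control, adjusted p = 0.0022, limma), while Pxn did not pass. The difference of Pxn minus Tgfb1i1 was -0.20, -0.01 and -0.63 with PDGF-BB, against -1.18, -0.83 and -0.99 in control, again without overlap (exact p of 0.1, adjusted 0.175). Ajuba, a LIM protein of the zyxin family that also restrains the Hippo pathway kinases, was 2.23-fold lower (adjusted p = 0.0052, limma), and Ctnna1, α-catenin of the vinculin family, 1.20-fold lower. Lpp, the nearest relative of zyxin, had a log2 change of -0.26 that did not pass (adjusted p = 0.065), though it did with the replicate number as a block (0.039). Tln2 was 1.33-fold lower (adjusted p = 0.034, limma). The difference of Tln1 minus Tln2 was 2.91, 2.39 and 2.82 with PDGF-BB, against 2.50, 2.33 and 2.37 in control, higher with PDGF-BB in each numbered pair but overlapping between groups (exact p of 0.2). Tns3 was 1.39-fold lower, with a difference of changes from Tns1 of -0.06 (exact p of 0.6), whereas Tns2 had a log2 change of -0.02 (95% interval -0.19 to 0.15) and the difference of Tns1 minus Tns2 was separate between groups (exact p of 0.1, adjusted 0.175). Fermt3 and Parvg, members of these families in blood cells, lay near background in both groups and Fermt1, the epithelial kindlin, below it, whereas Fermt2, the kindlin of most adherent cells, lay above it on every array.

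Of 16 measured genes that regulate integrins or the IPP complex, 3 fell and 1 rose (median log2 change -0.08). The 25% called is near the 21.5% of all genes, dim genes included. Rsu1, which binds PINCH1, was 1.31-fold lower (13.09 ± 0.05 with PDGF-BB and 13.49 ± 0.03 in control, adjusted p = 0.0040, limma). Kank2 and Kank1, which bind talin at the rim of adhesions, were 1.45-fold and 1.36-fold lower (adjusted p = 0.0016 and 0.039). Layn, layilin, a membrane receptor for hyaluronan that binds talin, was 1.44-fold higher (adjusted p = 0.0065).

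The kinases and signalling adaptors of focal adhesions mostly did not pass. Of 24 listed genes 21 were measured, and Ptk2, which encodes focal adhesion kinase itself, was not among the 21. Of 21 measured, 2 fell and 0 rose, 9.52% against 21.5% of all genes, with a median log2 change of -0.04. Those 2 were Bcar1, the p130Cas substrate of focal adhesion kinase and Src (1.37-fold lower, adjusted p = 0.0040, limma), and Elmo1, which activates Rac together with Dock1 (1.81-fold lower, adjusted p = 0.0054). Ptk2b, a kinase related to focal adhesion kinase, measured 9.10 ± 0.13 with PDGF-BB and 9.53 ± 0.28 in control. Its log2 change of -0.43 did not pass in the main fit (adjusted p = 0.074, limma) but passed with the block (0.021). Src, Crk, Git1, Rac1, Rhoa and Cdc42 had log2 changes between -0.09 and 0.13 and did not pass. At an unadjusted p under 0.05 limma gave 2 higher and 4 lower, and with the quantile normalization repeated 4 of the 21 were called.

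Among actin-binding partners of the adhesion 12 of 23 fell and 1 rose, 56.5% called against 21.5% of all genes. Their median log2 change was -0.35. Fhl1, a LIM protein of muscle, was 4.18-fold lower (10.13 ± 0.59 with PDGF-BB and 12.19 ± 0.03 in control, SD, n = 3 each, adjusted p = 0.0028, limma). Svil, supervillin, and Palld, palladin, which bundles actin in stress fibres, were 1.70-fold and 2.34-fold lower (adjusted p = 0.0027 and 0.0050). Vasp, the actin polymerase that zyxin recruits, went the other way and was 1.23-fold higher (10.09 ± 0.04 with PDGF-BB and 9.79 ± 0.05 in control, adjusted p = 0.011). Actn1, α-actinin 1, had a log2 change of -0.26 (adjusted p = 0.078), which passed in the blocked fit (0.041). Flna, filamin A, had one of -0.16 (adjusted p = 0.16).

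Of 14 measured genes in a list of SRF, its cofactors and their actin-related targets, 12 fell and 0 rose. The share called was 85.7% against 21.5% of all genes, and the median log2 change was -0.70. At limma's unadjusted p under 0.05 also 0 were higher. The transcription factor itself, Srf, was 1.41-fold lower (11.01 ± 0.12 with PDGF-BB and 11.51 ± 0.06 in control, adjusted p = 0.0053, limma), and its cofactors Mrtfa and Mrtfb had log2 changes of -0.76 and -0.43 (adjusted p = 0.0063 and 0.014). Tpm1, tropomyosin 1, was 1.39-fold lower and Ccn1, a matricellular protein, 1.92-fold lower (adjusted p = 0.0052 and 0.0057). Actb and Myh9, β-actin and non-muscle myosin heavy chain, had log2 changes of -0.06 and -0.07 and did not pass (95% intervals -0.18 to 0.07 and -0.25 to 0.10).

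**Figure D3:**
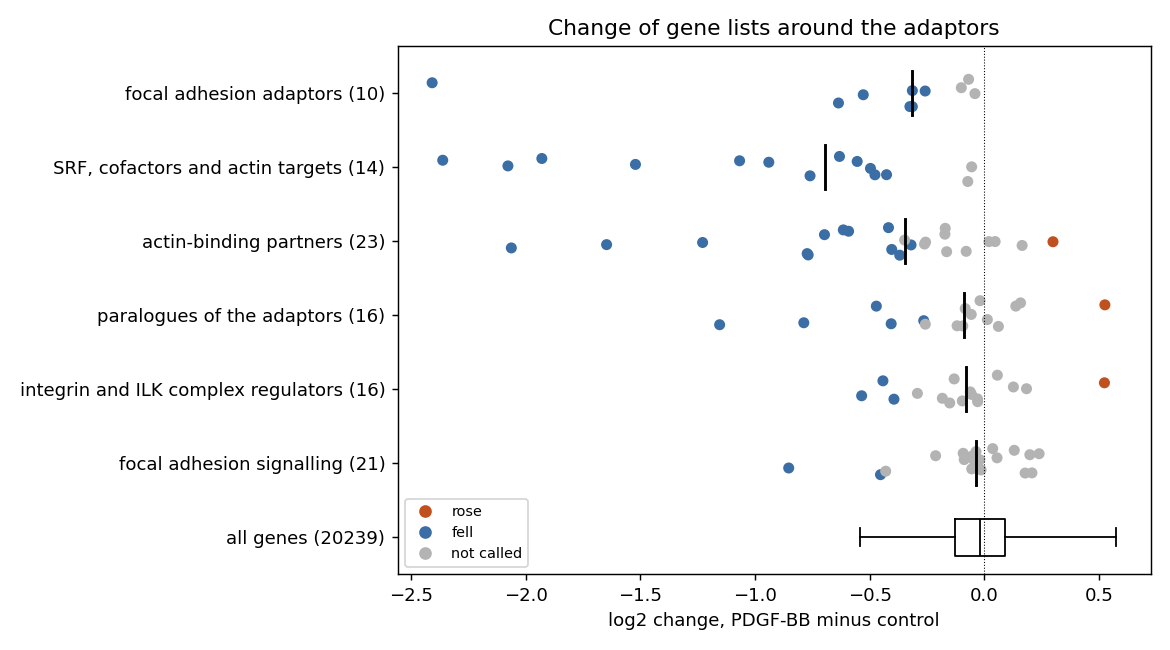
Log2 change, PDGF-BB minus control, of the genes in each list (points: blue fell, orange rose, grey did not pass; black line: median; number of genes in brackets) and of all genes (box: quartiles, whiskers: 5th and 95th percentile). The medians are -0.31 for the adaptors, -0.70 for the SRF list, -0.35 for the actin-binding partners, -0.04 for focal adhesion signalling and -0.02 for all genes.

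Markers of smooth muscle moved in the same direction as the adaptors. Of 7 markers 4 fell and 1 rose (Smtn, adjusted p = 0.044, or 0.067 in the blocked fit), and the mean level of the list was 8.74 to 9.14 on the PDGF-BB arrays and 9.72 to 10.08 on the control arrays. Myocd, which defines the contractile smooth muscle programme, lay below background in both groups and Myh11 close to it. The list shares Acta2, Tagln and Cnn1 with the SRF list. Of 8 fibroblast markers 3 rose (Lum, Dpt and Col3a1), with a mean level of 11.80 to 12.15 with PDGF-BB and 11.44 to 11.54 in control. The Col3a1 call was lost with the block (adjusted p = 0.044, and 0.054 with it). Of 12 pericyte markers 1 rose (Anpep, 1.83-fold, adjusted p = 0.0028) and 1 fell (Cd248, 1.26-fold, adjusted p = 0.040), and Cspg4 had a log2 change of 0.91 that passed with the block (adjusted p = 0.065, and 0.015 with it). Their mean level was 8.63 to 8.73 with PDGF-BB and 8.63 to 8.70 in control. Of 8 macrophage markers 2 fell, Cd68 (1.34-fold lower, adjusted p = 0.018) and Lyz2, which lay below background in both groups (adjusted p = 0.0053), with a mean level of 6.67 to 6.75 with PDGF-BB and 6.82 to 6.88 in control. The share called was 71.4% of the smooth muscle markers and 37.5% of the fibroblast markers, against 21.5% of all genes. It was 16.7% of the pericyte markers and 25% of the macrophage markers, both near that of all genes. The part of a shift in cell makeup in the falls of the adaptors was not tested. In bulk RNA fewer cells of a type and less RNA per cell cannot be told apart.

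Promoter sequence is shown because 7 adaptors fell together and vinculin is a known SRF target. RefSeq's table for GRCm38.p6 gave 10 transcription starts for 7 of the adaptors (Vcl, Fermt2, Zyx, Tns1, Tln1, Ilk and Lims1), and the 250 bases before each start were searched on both strands for 4 motifs. The 7 searched are not the 7 that fell: Lims2 and Parva fell but had no start there, whereas Ilk and Tln1 did not pass. A CArG box (its consensus is its own reverse complement) was found for 2 of the 7 searched, Vcl and Fermt2. It was found for 1.62% of all 27025 genes with a start, and before 1.47% of all 32851 RefSeq starts. The Vcl window, up to the base before the first annotated base of the gene (chr14:20929148-20929382, plus strand), holds the box 227 to 218 bases before the start, in capitals:
Vcl: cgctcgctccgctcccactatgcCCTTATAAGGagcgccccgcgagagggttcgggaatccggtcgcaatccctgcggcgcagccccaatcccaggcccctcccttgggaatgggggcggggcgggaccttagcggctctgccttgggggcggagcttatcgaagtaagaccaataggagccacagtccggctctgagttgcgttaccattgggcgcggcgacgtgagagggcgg

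The box of Fermt2 (chr14:45530250-45530279, minus strand, 204 to 195 bases before its start) and the 2 of Srf itself (chr17:46556225-46556254 and chr17:46556205-46556234, minus strand) are set beside it here with 10 flanking bases on each side, the box in capitals:
Vcl: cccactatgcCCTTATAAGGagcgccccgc
Fermt2: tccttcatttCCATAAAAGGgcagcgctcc
Srf, distal: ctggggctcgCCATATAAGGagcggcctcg
Srf, proximal: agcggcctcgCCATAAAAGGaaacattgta
The box of Fermt2 and the proximal box of Srf are the same 10 bases. A longer transcript of Fermt2 or Srf begins upstream of these boxes in RefSeq, so they lie inside the annotated gene.

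Over all measured genes the share that fell was near the background where the box was present: of 227 measured genes that hold it in this window, 27 fell (11.9%) and 13 rose (5.73%), against 11.7% and 10.4% of the 15651 measured genes with a RefSeq start. In the SRF list it was found for 4 of 12 genes with a start, Srf, Myl9, Cnn2 and Actg1, which was not analysed here, and among the actin-binding partners for 2 of 18, Fhl1 and Fhl2. All 5 of these with a measured level fell. With or without a box, 12 of 14 measured genes in the SRF list fell, and 12 of 23 actin-binding partners. A part of the box in these falls was not tested. Of the other motifs, GGAATG, bound by TEAD factors, was found for Vcl (14.4% of all genes with a start hold it), TGANTCA, bound by AP-1, for Zyx (7.82%), and GTAAACA, bound by FoxO factors, for 0 of the 7 (3.54%). The stretch of letters is a match only, and binding was not measured.

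By the root mean square difference of centred log2 values over the 6 arrays, the genes whose pattern was most like that of Lims2 were Ccbe1 (0.06), Phyhd1 (0.15) and P4ha3 (0.21). Gene-model names, such as Gm numbers and Rik names, were left out of these comparisons. Ccbe1, a secreted protein with collagen and EGF-like domains that is needed for lymphatic growth, was 5.14-fold lower and measured 9.32, 8.50 and 9.01 on the PDGF-BB arrays, against 11.19, 11.23 and 11.49 on the control arrays. P4ha3, a prolyl 4-hydroxylase subunit, was 6.40-fold lower. The genes most like Vcl were Klhl7 (0.02), Klhdc1 (0.03) and Thnsl2 (0.03), with log2 changes of -0.61, -0.66 and -0.58.

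**Figure D4:**
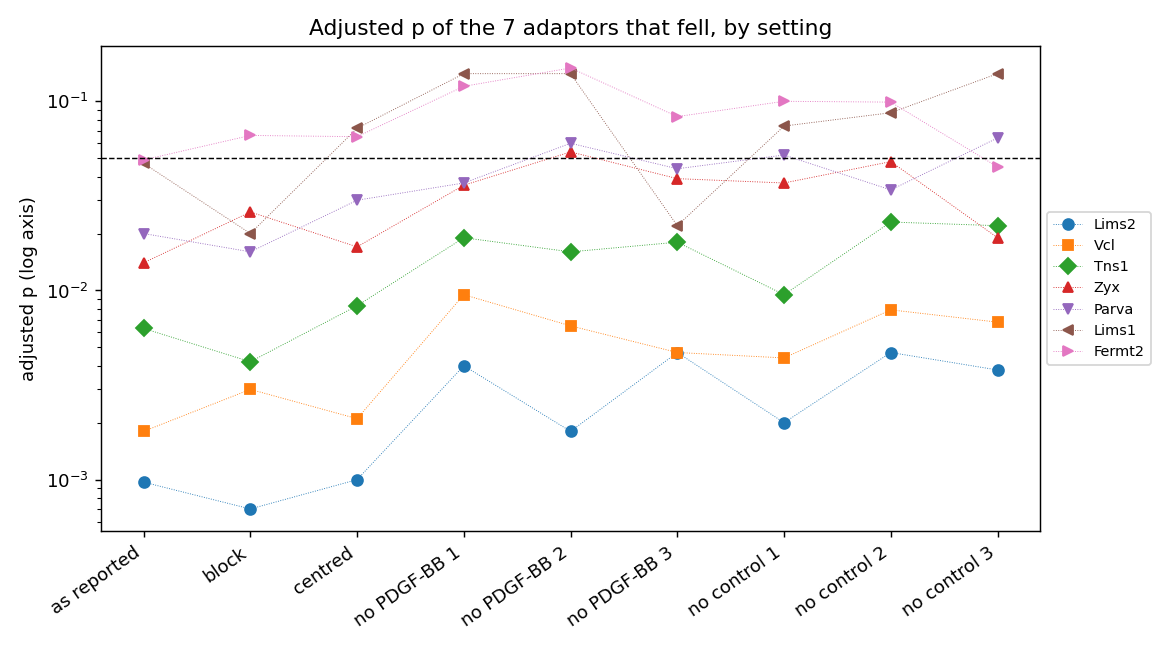
Adjusted p (log axis) of the 7 adaptors that fell, as reported, with the replicate number as a block, with each array centred on its median, and with each array left out in turn; the dashed line is 0.05. Lims2, Vcl and Tns1 stay below the line in all settings drawn, and Lims1 and Fermt2 lie above it in 6 and 7 of them.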

How the data were processed

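The deposited table holds log2 expression values of 21225 probe sets on 6 arrays of biotin-labelled total RNA, and the submitters' processing notes name RMA as the method. Its version, the filters applied and how the probe sets were defined are not stated there. The log2 scale was inferred from RMA and from the range of the deposited values, 4.08 to 14.2. GEO's platform annotation names 20239 probe sets by 1 symbol each, all found in RefSeq's GRCm38.p6 table, and the other 986 entered only an alternative. limma 3.58.1 in R 4.3.3 (lmFit, eBayes, group as the only factor, two-sided, Benjamini-Hochberg over 20239 genes, no filter) was tested on simulated data first. Arrays give no depth, and 3 per group limit the precision.

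The adaptors, lists, motifs and alternatives were chosen with earlier results of these data known, and the background level after them. Named are all adaptors, up to 3 called genes per list and direction with the smallest p, and PDGF receptors. Also named are the 3 genes nearest in pattern to Lims2 and to Vcl, gene-model names left out. The further paralogues and Mrtfa, Mrtfb, Actb, Myh9, Actn1 and Flna were named after their values were seen. So were the signalling genes that did not pass, the holders of a motif and the markers.

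Deviations from the group mean correlated at 0.25 to 0.32 between arrays of the same number and at -0.28 to 0.01 otherwise, which was read as pairing by number. The deviations of a gene within a group cancel out, so the 2 ranges depend on each other. The main fit left the number out. Alternatives were the pairing as a block, repeated quantile normalization, median centring, a filter at the 50th percentile of signal, 2 other variance priors, unnamed probe sets, and leaving out each array. Batches other than the number were not tested.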

Additional observations from a re-analysis of the deposited data

How the results depend on the processing

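Over 13 alternatives for each of the 10 adaptors, 111 values kept their direction and their side of the threshold, 17 kept the direction but lost the call and 2 reversed. Lims2 (log2 change -2.56 to -2.19), Vcl (-0.68 to -0.58) and Tns1 (-0.58 to -0.45) kept their calls throughout. The lost calls were 6 for Lims1, 7 for Fermt2, 3 for Parva and 1 for Zyx, and the cause was not tested, except that leaving out an array leaves fewer samples. The 2 that reversed were uncalled: Ilk without control array 1 (0.0096; range without 1 array -0.0741 to 0.0096) and Pxn without PDGF-BB array 3 (0.027; range -0.1345 to 0.027). Leaving out 1 array gave 3 to 6 adaptors called, all lower, 2934 to 4219 genes called (1514 to 2188 lower), and 3 to 6 paralogues called. With the replicate number as a block 6 adaptors fell and 4741 genes were called. With quantile normalization repeated 4 focal adhesion signalling genes were called. The unequal change of Tns1 and Tns3 was -0.06 and reversed to 0.0036 without PDGF-BB array 1 and to 0.0075 without control array 1 (range -0.1695 to 0.0075), and that of Zyx and Lpp reversed to 0.0303 without control array 2 (range -0.1381 to 0.0303). Dim genes such as Fermt1 and Lpxn lay below the background level, so a change in them may go unseen. The block ended the call of Fermt2 (adjusted p = 0.066) and of no other adaptor.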

Other observations

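Mcpt8, a basophil protease in the marker list that sets the background level, was at least 3.53-fold higher with PDGF-BB (8.68 ± 0.84 with PDGF-BB and 6.86 ± 0.65 in control, SD, n = 3 each, adjusted p = 0.033, limma), while Cpa3 and Mcpt4, further granulocyte or mast cell proteases, lay below background in both groups. It was named after its value was seen.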
